A study of Mus musculus with 15 samples.

Results

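The small heat shock proteins described here are encoded by 5 genes, Hspb1, Hspb2, Hspb6, Hspb8 and Cryab, among the 17090 genes of the deposited count table. They were selected by symbol, each by the 1 transcript that carries the authors' mark as the best, and all 5 were found. Hspb2 was picked for its rise in E11.5 stomach cells, and Cryab is its neighbour on the chromosome. For this reason the E11.5 values of the 5 genes are given as a description, with no test.

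RNA was sequenced from enteric neural crest-derived cells (ENCDC), the migrating precursors of the enteric nervous system, which had been sorted by fluorescence from single mouse embryos, of mixed background per the labels, although the methods give C57BL/6J for the RarαDN, Wnt1Cre and TdTomato lines. Stomach ENCDC at E11.5 came from 4 control embryos (Wnt1Cre; ROSA26TdTomato) and 4 embryos that also carried RarαDNLoxP/+, and were sorted by TdTomato. Colon ENCDC at E13.5 came from 4 control embryos (RETCreERT2-EYFPTandem) and 3 embryos that also carried RarαDNLoxP/+, and were sorted by EYFP; both E13.5 groups had been given tamoxifen at E10.5. RarαDN is a version of RARα, a receptor for retinoic acid, that blocks the normal receptor and is made only after Cre recombination. Wnt1Cre marks neural crest derivatives at large, which include cells other than ENS precursors, and RETCreERT2 marks the Ret lineage, which includes some blood cells. Since the 2 experiments differ in age, organ, Cre driver and reporter at once, these cannot be told apart, and levels at E11.5 and E13.5 are set side by side with no test.

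Small heat shock proteins share a conserved alpha-crystallin domain and assemble into oligomers. They hold unfolding proteins in a soluble state without using ATP, so that HSP70 and HSP110 machines can refold them. Several members are abundant in muscle, where they bind desmin, actin and filamin, and Hspb1, Hspb8 and Cryab are also known as heat shock factor targets in stressed cells.

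Hspb2 lies on chromosome 9 on the minus strand (GRCm38 positions 50751078 to 50752293, 2 exons), and Cryab lies on the plus strand (50752993 to 50756630, 4 exons). The annotated transcription starts are head to head, 700 bases apart. Hspb1 (chromosome 5, 135887919 to 135889563, plus strand), Hspb8 (chromosome 5, 116408491 to 116422864, minus strand) and Hspb6 (chromosome 7, 30553268 to 30555443, plus strand) lie elsewhere. These positions come from GENCODE M21 transcripts matched by RefSeq accession; the build of the authors' mapping was not stated in what was read here.

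The transcripts of the 5 genes share only short identical runs of bases, which bears on whether reads could be assigned to the wrong member. Similarity over longer stretches with mismatches was not measured. The longest identical run between any 2 of the 5 transcripts was 16 bases, between Hspb1 and Cryab, and the run shared by Hspb2 and Cryab was 9 bases. The Hspb1 and Cryab runs lie in the coding sequence of both, and are shown with 15 bases on either side (the identical run in capitals).
Hspb1: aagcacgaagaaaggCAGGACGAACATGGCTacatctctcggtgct
Cryab: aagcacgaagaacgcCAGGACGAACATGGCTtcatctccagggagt

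RefSeq promoter windows (GRCm38.p6, 250 bases before to 50 after each start) were found for 3 of the 5 genes, Hspb1, Hspb6 and Hspb8. They were searched on both strands for the letters GAANNTTC, a pair of facing units of the heat shock element. Each of the 3 genes held this motif in a window, and in each 1 copy read GAAGTTTC. Across the 32851 windows of the table, 7.86% held GAANNTTC and 1.21% held GAAGTTTC; the narrower form was counted after the matches had been seen. The matches are shown with the bases around them and the motif in capitals. What all 3 share there is the letters GAAGTTTC, while the bases around them differ.
Hspb1, chr5:135887772-135887859, plus strand: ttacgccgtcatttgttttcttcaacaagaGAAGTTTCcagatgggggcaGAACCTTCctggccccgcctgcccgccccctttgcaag
Hspb6, chr7:30553151-30553218, plus strand: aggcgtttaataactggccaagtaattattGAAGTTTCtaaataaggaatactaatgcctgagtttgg
Hspb8, chr5:116422825-116422892, minus strand: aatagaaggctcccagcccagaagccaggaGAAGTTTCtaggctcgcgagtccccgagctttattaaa

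Distances are from the RefSeq start of each window, which for Hspb1 and Hspb8 is also the GENCODE start; for Hspb6 it is position 30553301, which lies 33 bases downstream of the GENCODE start given above. The Hspb1 copies began 117 and 97 bases before the start, the Hspb6 copy 120 bases before it, and the Hspb8 copy at base 3 of the transcript. Hspb6 has another window in the table, which held no copy. The facing-away form TTCNNGAA (8.52% of windows), the nuclear receptor core site AGGTCA (16.3%), its direct repeats DR5 and DR2 (0.00913% each), the M-box CATGTG (14.2%) and the CArG box (1.63%) did not match in any of these 4 windows. The E-box letters CANNTG, of which the M-box is 1 form and which 72.3% of windows held, matched in Hspb1 and Hspb8, and TATAAA (13.6% of windows) matched in Hspb6, 29 bases before its RefSeq start.

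Each library held 6065029 to 12121327 counts over all genes, and the 4 groups overlapped in depth. Levels are given as CPM (counts scaled to the library's size), normalised over all 15 libraries by TMM. E13.5 control libraries 2 and 3 stood apart by their hemoglobin genes, which summed to 826 and 4063 CPM against 0.327 to 77.7 CPM in the other 13 libraries. Rara, the gene behind the blocking receptor, overlapped between genotypes (73.5 to 104 against 72.0 to 129 CPM with RarαDN at E11.5, and 57.2 to 84.8 against 47.7 to 94.1 CPM at E13.5); how reads of the RarαDN cassette were counted is unknown, so this checks no label. The 4 E11.5 RarαDN libraries were unlike each other in the markers of ENCDC. Ret, which encodes the GDNF receptor of ENCDC, was at 123 and 225 CPM in libraries 1 and 2 but at 0.581 and 0.114 CPM in libraries 3 and 4, against 420 to 1678 CPM in control ENCDC. Sox10, a transcription factor of crest cells, was at 186 to 775 CPM in the same RarαDN libraries and 132 to 415 CPM in control ENCDC. In such sorted samples, a change in the mix of cells and a change in the RNA of each cell cannot be told apart.

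Hspb2 encodes a muscle protein that binds the myotonic dystrophy kinase DMPK. It was nearly absent from E11.5 control ENCDC, with 3, 7, 0 and 2 counts in the 4 libraries, and was abundant in E11.5 RarαDN-expressing ENCDC, with 1290, 1659, 451 and 471 counts. In CPM these were 0.295 ± 0.324 (mean ± SD, n = 4) against 90.2 ± 36.2 (n = 4). The groups were far apart, and the lowest RarαDN library (53.6 CPM) lay above the highest control library (0.753 CPM). The fitted log2 fold change was 8.21 (SE 0.67), and 9.13 without control library 2, which held most of the control counts. At E13.5, Hspb2 had 7 counts in control library 1 and 0 in each of the other 6 libraries of colon ENCDC. The 0 counts over the 3 E13.5 RarαDN libraries allow a level of up to 0.120 CPM (3 counts over the group, counting error only). Ordered by level, the E11.5 RarαDN libraries came first, and the ranges of the 3 remaining groups overlapped.

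The shorter annotated Hspb2 transcript, which begins upstream of the best one, had nearly the same counts. In the E11.5 RarαDN libraries it had 92.8%, 88.2%, 89.6% and 93.2% of the count of the longer one, so the choice of transcript made little difference. Transcripts sharing exons share reads in such a table. An additional Cryab transcript in the annotation begins with an exon that overlaps the Hspb2 exon by 252 bases on the opposite strand. The libraries were not made strand-specific by any named step, so reads in that overlap cannot be assigned to either gene. The level of Hspb2 is uncertain to that extent. The counted Cryab transcript starts at position 50752993, outside the Hspb2 transcripts, and has no such overlap in this annotation.

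Cryab encodes alpha B-crystallin, a lens, muscle and glial chaperone of desmin and other filaments. It was also higher in E11.5 RarαDN-expressing ENCDC. Control libraries had 21, 43, 8 and 22 counts and RarαDN libraries had 3863, 2332, 469 and 790 counts. The levels were 2.29 ± 1.62 CPM (n = 4) and 170 ± 124 CPM (n = 4), with no overlap between the groups. The RarαDN libraries spread over a range of 68.2 to 341 CPM, with library 1 highest for Cryab and library 2 highest for Hspb2. The fitted log2 fold change was 6.20 (SE 0.67), with 6.80 left without control library 2. It was 5.64 without RarαDN library 1.

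**Figure D1:**
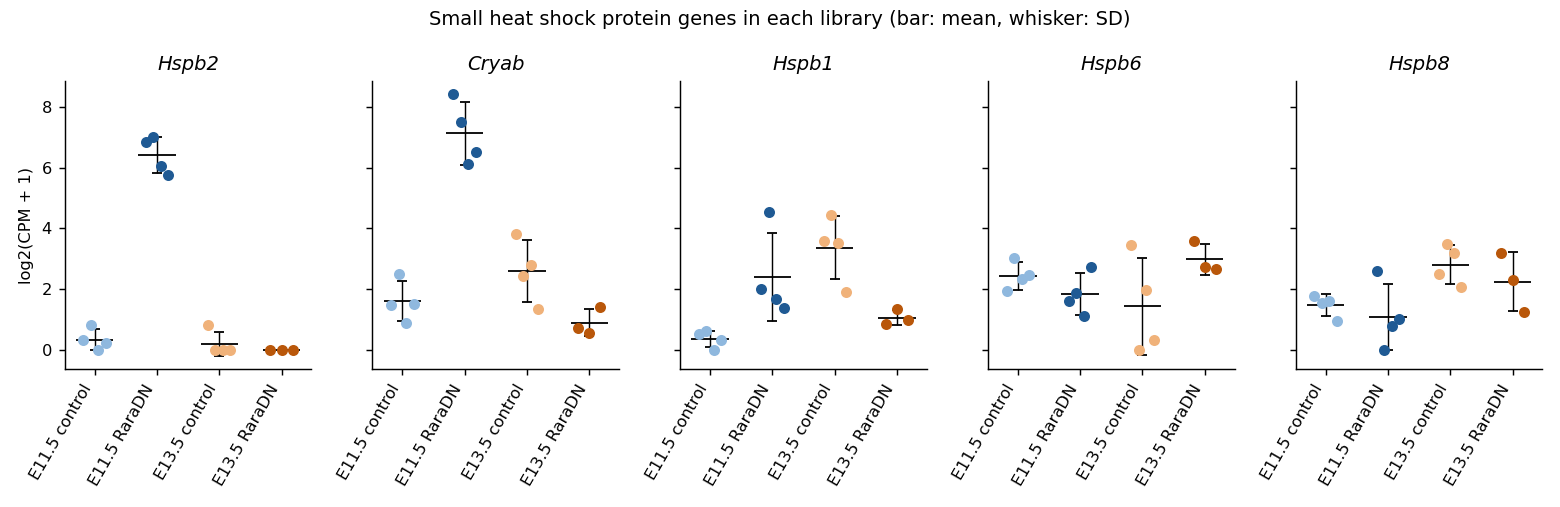
Level of the 5 genes in each of the 15 libraries as log2(CPM + 1), by group (points, libraries; horizontal bar, mean; whisker, SD of the log values). Hspb2 and Cryab stand high in the 4 E11.5 RarαDN libraries, at 53.6 to 128 and 68.2 to 341 CPM, while Hspb6 and Hspb8 overlap between all neighbouring groups.

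At E13.5, Cryab moved to the opposite side of its control, but within the spread. Control libraries had 122, 27, 41 and 12 counts and RarαDN libraries had 4, 4 and 17 counts, which overlap once scaled (1.53 to 13.1 against 0.469 to 1.67 CPM). The log2 fold change was -2.68 (SE 1.06), with an adjusted p of 0.156 in edgeR's quasi-likelihood test over the 12085 genes tested at this age. DESeq2 gave an adjusted p of 0.0489 for the same libraries; over all alternatives the adjusted p was between 0.0489 and 0.402. Ordered by level, the E11.5 RarαDN libraries came first, then E13.5 control, E11.5 control and E13.5 RarαDN libraries, whose ranges each overlapped with the next.

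Per kilobase of transcript, Cryab was at 201 ± 147 CPM and Hspb2 at 117 ± 46.8 CPM in E11.5 RarαDN-expressing ENCDC (n = 4). Within a library, the level of Cryab per kilobase was 2.74, 1.28, 0.950 and 1.53 times that of Hspb2 in RarαDN libraries 1 to 4. In the 3 E11.5 control libraries with any Hspb2 count, this ratio was 6.40, 5.61 and 10.1, on no more than 7 counts of Hspb2. In E13.5 control library 1, with 7 counts of Hspb2 and 122 of Cryab, it was 15.9. Thus both genes of the pair were high in the same 4 libraries, while the little signal outside those libraries was mostly Cryab.

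**Figure D2:**
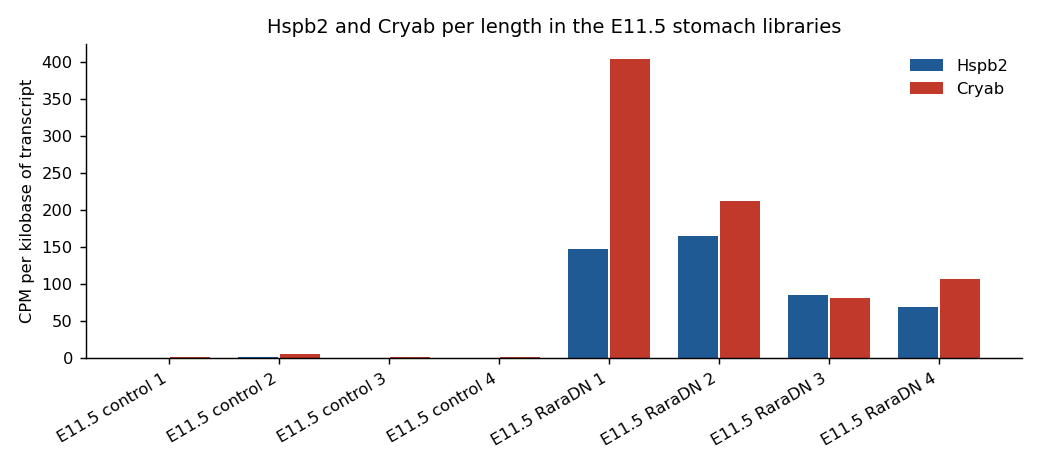
Level of Hspb2 and Cryab in the 8 E11.5 stomach libraries, in CPM per kilobase of transcript (bars start at 0). The control bars are barely visible, with means of 0.382 for Hspb2 and 2.71 for Cryab, and Cryab exceeds Hspb2 in RarαDN libraries 1, 2 and 4 but not 3.

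Hspb1 encodes HSP27, an actin-binding chaperone that is phosphorylated by the kinase MAPKAPK2. E11.5 control libraries had 5, 5, 0 and 3 counts and RarαDN libraries had 34, 287, 15 and 14 counts. The levels were 0.306 ± 0.235 CPM (n = 4) and 7.22 ± 9.94 CPM (n = 4). All 4 RarαDN libraries were above all controls, but library 2 (22.1 CPM) was far above the other 3 (1.59 to 3.01 CPM). The fitted log2 fold change of 4.49 (SE 1.23) became 2.82 without that library.

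In E13.5 colon ENCDC, Hspb1 was instead lower with RarαDN. Control libraries had 103, 126, 72 and 22 counts and RarαDN libraries had 5, 13 and 10 counts. The levels were 11.2 ± 7.29 CPM (n = 4) and 1.11 ± 0.364 CPM (n = 3), with the lowest control library at 2.80 CPM and the highest RarαDN library at 1.52 CPM. The log2 fold change was -3.26 (SE 0.84), and the adjusted p of edgeR's quasi-likelihood test was 0.0398. The fold change kept its sign under every alternative tried, but the call rested on having all libraries. The adjusted p was 0.0517, 0.105 and 0.0754 without control library 1, 2 or 3 and 0.167, 0.116 and 0.135 without RarαDN library 1, 2 or 3. It was 0.0177 without control library 4, 0.172 with limma-voom, 0.101 with all 4 groups in 1 fit and 0.000919 with DESeq2. Without both hemoglobin-rich control libraries the log2 fold change was -2.60 with an adjusted p of 0.197. Ordered by level, the E13.5 control and E11.5 RarαDN libraries overlapped at the top, followed by E13.5 RarαDN and then E11.5 control libraries, neither of which overlapped with the group above it.

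Hspb6 encodes HSP20, which in smooth muscle is phosphorylated during relaxation. E11.5 control libraries had 33, 66, 37 and 53 counts and RarαDN libraries had 23, 35, 8 and 50 counts. The levels overlapped, at 4.62 ± 1.80 CPM and 2.89 ± 1.96 CPM (n = 4 each), with a fitted log2 fold change of -0.69 (SE 0.72). At E13.5, control libraries had 93, 0, 20 and 2 counts and RarαDN libraries had 66, 48 and 54 counts, at 3.29 ± 4.67 CPM (n = 4) and 7.30 ± 3.18 CPM (n = 3). The control libraries alone ranged from 0 to 10.02 CPM and so took in most of the RarαDN range. The log2 fold change of 1.15 (SE 1.31) did not pass (edgeR adjusted p = 0.664). The order of the 4 groups ran from E13.5 RarαDN through E11.5 control and E13.5 control to E11.5 RarαDN libraries, with overlap at each step.

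Hspb8 encodes HSP22, the partner of the co-chaperone BAG3 in the selective autophagy of damaged filamin. E11.5 control libraries had 28, 18, 19 and 11 counts and RarαDN libraries had 57, 0, 5 and 9 counts. The means were alike, at 1.84 ± 0.632 and 1.70 ± 2.27 CPM (n = 4 each), but the RarαDN libraries were spread more widely, from 0 to 5.04 CPM. The fitted log2 fold change was -0.11 (SE 1.18). At E13.5, control libraries had 43, 63, 56 and 25 counts and RarαDN libraries had 49, 34 and 14 counts, at 6.56 ± 3.24 CPM (n = 4) and 4.50 ± 3.41 CPM (n = 3). These overlapped, and the log2 fold change of -0.50 (SE 0.81) did not pass (edgeR adjusted p = 0.776). The groups were ordered E13.5 control, E13.5 RarαDN, E11.5 control and E11.5 RarαDN, each overlapping with the next.

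**Figure D3:**
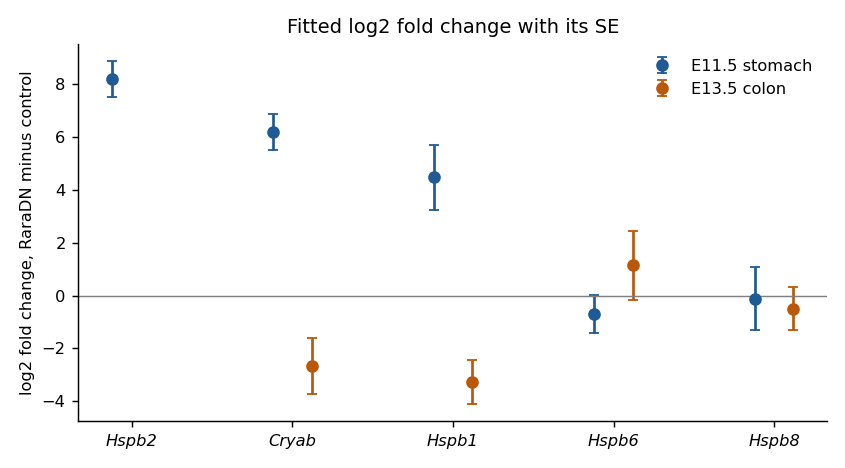
Fitted log2 fold change of the 5 genes, RarαDN minus control, at E11.5 and at E13.5 (points; whiskers, SE). Hspb1 lies at 4.49 at E11.5 and at -3.26 at E13.5, Hspb2 has no E13.5 point because it did not pass the filter on low counts, and the E11.5 points carry no test.

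All 5 genes passed the filter on low counts at E11.5 and 4 of 5 passed at E13.5. At E11.5, 3 of the 5 genes were higher in every RarαDN library than in any control and none was lower in every one. Over all 12427 genes tested at E11.5, groups did not overlap in 6.71% (higher with RarαDN) and 8.96% (lower), and 3.07% (higher) and 2.93% (lower) passed an adjusted p of 0.05. Since Hspb2 was picked for this comparison, nothing is read from that count. At E13.5, 1 of the 4 tested genes passed, Hspb1, which was lower; over all 12085 genes, 5.55% passed as lower and 2.78% as higher, and groups did not overlap in 13.3% (lower) and 12.7% (higher).

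The order of the 5 genes per kilobase differed between the groups. In E11.5 control ENCDC, Hspb6 (3.39 ± 1.32 CPM per kilobase, n = 4) and Cryab (2.71 ± 1.92) were above Hspb8 (1.01 ± 0.348), Hspb2 (0.382 ± 0.419) and Hspb1 (0.338 ± 0.260). In E13.5 control ENCDC, Hspb1 (12.4 ± 8.07 CPM per kilobase, n = 4) and Cryab (7.40 ± 5.85) were above Hspb8 (3.61 ± 1.79) and Hspb6 (2.42 ± 3.43), within overlapping spreads. In E13.5 RarαDN-expressing ENCDC, Hspb6 was at 5.35 ± 2.33 CPM per kilobase (n = 3), Hspb8 at 2.48 ± 1.88, Hspb1 at 1.23 ± 0.403 and Cryab at 1.10 ± 0.763.

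The genes that flank the pair were compared in the same way, with the 3 nearest protein-coding genes on each side. On the Hspb2 side, 2310030G06Rik, which ends 4542 bases from the pair, was higher in E11.5 RarαDN-expressing ENCDC, at 16.2, 20.0, 14.4 and 21.8 CPM against 1.12, 7.53, 2.61 and 2.04 CPM in control ENCDC (edgeR log2 fold change 2.43, SE 0.60, adjusted p = 0.0376). The groups did not overlap. The adjusted p lay between 0.0105 and 0.131 when libraries were left out one at a time, and was over 0.05 without control library 1, 3 or 4 or RarαDN library 2 or 4. With all 4 groups in 1 fit it was 0.102. At E13.5 the gene was at 1.75 ± 1.55 CPM (n = 4) and 1.83 ± 0.720 CPM (n = 3). The other 5 flanking genes did not pass at either age: Dixdc1 had log2 fold changes of -0.92 and -0.41 at E11.5 and E13.5 (adjusted p = 0.274 and 0.702), and Dlat, 1110032A03Rik, Fdxacb1 and Alg9 lay between -0.52 and 0.08.

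**Figure D4:**
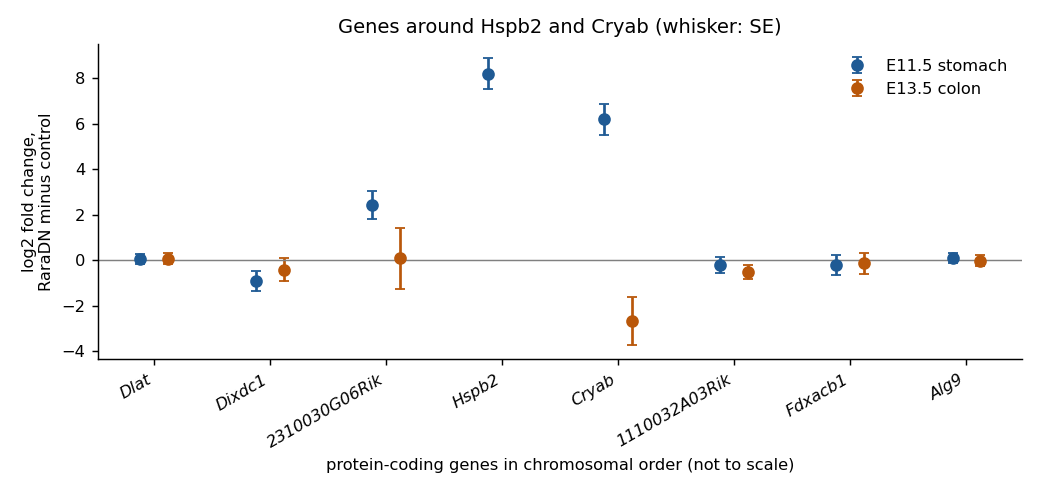
Fitted log2 fold change, RarαDN minus control, of Hspb2, Cryab and the 3 nearest protein-coding genes on each side, in chromosomal order and not to scale (points; whiskers, SE). At E11.5 the pair lies at 8.21 and 6.20 and 2310030G06Rik at 2.43, while the other 5 genes lie between -0.92 and 0.08.

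Other chaperone families were counted with the test, from lists of their members. Of the 5 further small heat shock proteins listed, 3 were in the table (Hspb3, Hspb9 and Odf1) and none passed the filter at either age. Hspb3, whose protein assembles with that of Hspb2 in muscle, was at 3.34, 5.72, 1.01 and 0 CPM in E13.5 control libraries and had 0 counts in all 3 RarαDN libraries, and was at 0 to 3.09 CPM at E11.5.

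HSP70 and HSP110 genes take over clients from small heat shock proteins. Of 15 tested at E11.5, 3 were higher and 1 lower, and the median log2 fold change of the list was -0.25, against -0.05 over all genes. Hspa1a and Hspa1b, the near-identical heat-inducible HSP70 genes whose reads may be shared, were higher in the test (edgeR log2 fold change 7.61, SE 1.90, adjusted p = 0.0388, and 6.02, SE 1.39, adjusted p = 0.0283). However, Hspa1a was at 3.09, 399, 8.57 and 1.14 CPM in RarαDN libraries 1 to 4, so that library 2, the one high in Hspb1, held most of it, and the ranges of the groups overlapped. Hspa1b was at 10.6, 404, 9.16 and 7.96 CPM against 1.40 to 1.80 CPM in control ENCDC. Without library 2 the log2 fold changes were 3.00 for Hspa1a and 2.48 for Hspa1b. Limma-voom gave adjusted p = 0.433 for Hspa1a and 0.309 for Hspa1b, no filter on low counts gave 0.0940 and 0.0589, and DESeq2 gave no adjusted p for either. Both calls were lost without any 1 of the control libraries. Without RarαDN library 2 the list had 2 higher and 1 lower gene, and Hspa1a no longer passed (adjusted p = 0.119).

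Other heat shock genes varied in whether library 2 stood out among the RarαDN libraries. Hsp90aa1 was highest in library 2, at 354 CPM against 281 to 313 CPM in the other 3, as was Hsf1, which encodes the main heat shock factor, at 139 against 102 to 114 CPM. Dnajb1, the main partner of inducible HSP70, was at 115 CPM in that library and at 77.6 to 133 CPM in the other 3. Hsph1, an HSP110 gene, was at 98.1 CPM against 93.9 to 123 CPM, and Hspa8, the constitutive HSP70, was lowest in library 2, at 440 against 561 to 605 CPM. The part of heat shock in the Hspb1 value of this library was not tested. Hspa2 (edgeR log2 fold change 2.22, SE 0.50, adjusted p = 0.0254) was higher and Hspa13, an HSP70 relative of the endoplasmic reticulum (-1.23, SE 0.30, adjusted p = 0.0344), was lower at E11.5, without overlap between the groups. Both calls were lost without any 1 of the control libraries, and also without RarαDN library 3; Hspa13 was lost without RarαDN library 1 as well, and Hspa2 with limma-voom (adjusted p = 0.0632). None of the 13 tested at E13.5 passed, where Hspa5, the ER chaperone BiP and the most abundant of them, was at 1388 ± 252 CPM (n = 4) and 1997 ± 235 CPM (n = 3; log2 fold change 0.56, adjusted p = 0.0721).

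Among the 13 J-domain cochaperones tested at E11.5, which load HSP70 with clients, 1 was higher and none lower (median -0.12). This was Dnajb2, with a mean of 49.0 ± 8.46 CPM with RarαDN against 23.5 ± 2.85 CPM without it (edgeR log2 fold change 1.05, SE 0.26, adjusted p = 0.0376, between 0.0331 and 0.145 with a library left out, and lost without control library 1, 3 or 4 or RarαDN library 2 or 3, or, at 0.0537, with no filter on low counts). None of 14 passed at E13.5 (median 0.06, against 0.06 over all genes), where the most abundant, Dnaja2, had a log2 fold change of 0.32 (adjusted p = 0.142). None of the 11 genes for HSP90 and its cochaperones passed at either age (medians -0.01 and 0.20). Hsp90ab1, their most abundant member, had log2 fold changes of -0.07 at E11.5 and 0.20 at E13.5 (adjusted p = 0.871 and 0.319). Of the 10 chaperonin genes, none passed at E11.5 (median -0.15), where Cct8 had a log2 fold change of -0.19 (adjusted p = 0.663), and 1 was lower at E13.5 (median 0.13). That gene was Hspe1, the mitochondrial co-chaperonin HSP10, with 609 ± 144 against 357 ± 9.999 CPM (log2 fold change -0.73, SE 0.17, adjusted p = 0.0284).

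**Figure D5:**
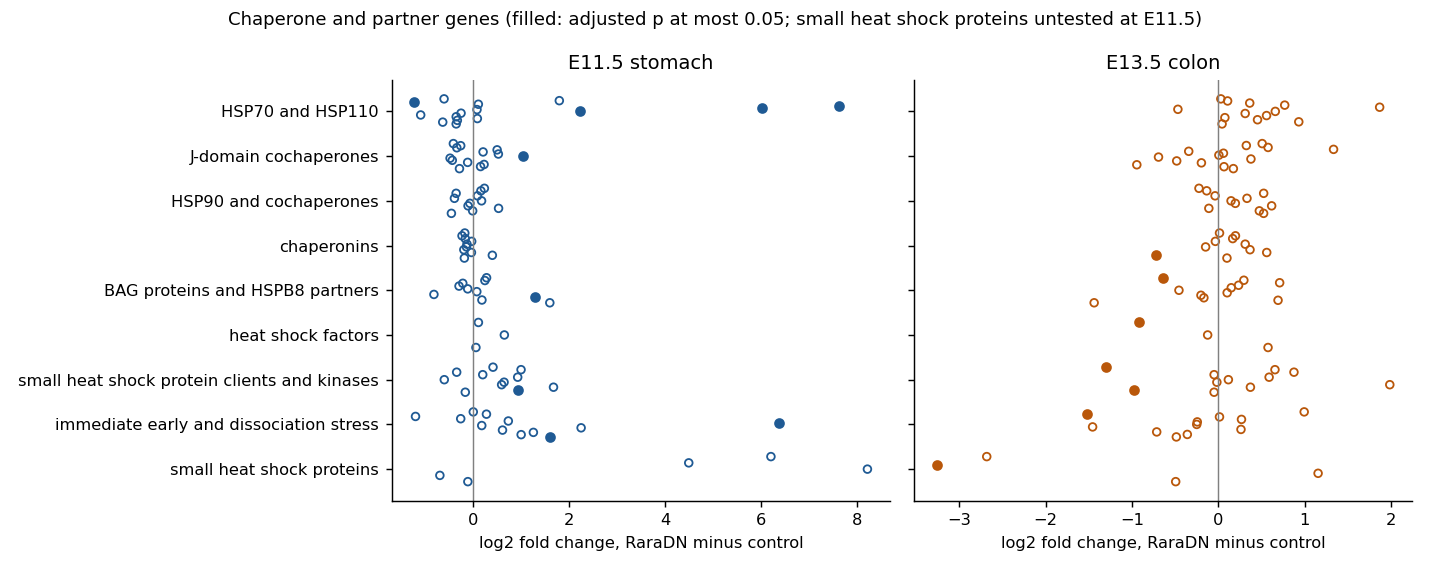
Fitted log2 fold change, RarαDN minus control, of every tested gene of 8 chaperone and partner lists and of the 5 small heat shock proteins, at E11.5 (left) and E13.5 (right; the axes differ in scale). Filled points passed an adjusted p of 0.05; the small heat shock proteins carry no test at E11.5. The HSP90 and chaperonin lists sit near 0, with medians between -0.15 and 0.20.

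Partners of HSPB8 and the BAG family were counted as well. Of 10 tested at E11.5, 1 was higher (median 0.13), Sqstm1, the autophagy receptor p62. It was at 394, 337, 384 and 403 CPM in RarαDN libraries against 129 to 175 CPM in control ENCDC (edgeR log2 fold change 1.30, SE 0.18, adjusted p = 0.00184), and it passed whichever library was left out. Bag3 itself overlapped at E11.5, at 53.9 to 105 CPM with RarαDN and 64.6 to 106 CPM without it. At E13.5 its groups did not overlap (77.5 to 122 CPM with RarαDN, 48.7 to 74.2 CPM without), but the log2 fold change of 0.71 (SE 0.23) did not pass (edgeR adjusted p = 0.0903). At E13.5, 1 of 11 passed (median 0.10), the HSP70 exchange factor Bag1, which was lower (650 ± 97.7 against 407 ± 66.6 CPM, log2 fold change -0.64, adjusted p = 0.0371). Of the heat shock factor genes and their binding protein, none of 3 passed at E11.5 (median 0.11), where Hsbp1 had a log2 fold change of 0.11 (adjusted p = 0.858). Hsf1 did not overlap between the groups at E11.5, at 102 to 139 CPM with RarαDN and 55.5 to 90.0 CPM without it. Its log2 fold change of 0.65 (SE 0.22) did not pass (edgeR adjusted p = 0.122). With DESeq2, 1 of the 3 genes passed as higher. At E13.5, 1 of 3 was lower (median -0.13): Hsbp1, a binding protein and inhibitor of HSF1, fell from 600 ± 100 to 308 ± 9.48 CPM (log2 fold change -0.92, adjusted p = 0.00846).

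The filament proteins that small heat shock proteins bind, with the kinases that phosphorylate them, were counted next. At E11.5, 1 of 11 was higher (median 0.59). This was Vim, the intermediate filament of mesenchymal and crest cells, at 1644 ± 191 CPM with RarαDN against 847 ± 130 CPM without it (edgeR log2 fold change 0.94, SE 0.17, adjusted p = 0.00799). At E13.5, 2 of 11 were lower (median 0.11). Vim fell from 2227 ± 300 (n = 4) to 1103 ± 46.1 CPM (n = 3; adjusted p = 0.00609 for a log2 fold change of -0.98, SE 0.13), and Des, which encodes desmin, from 50.1 ± 7.47 to 19.9 ± 3.73 CPM (-1.30, SE 0.28, adjusted p = 0.0209). The difference between the ages was not tested for either list or gene.

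Genes that handling can induce during cell dissociation were counted as well. At E11.5, 2 of 12 were higher (median 0.67): Gadd45b, a stress-inducible gene (0.590 ± 0.528 against 50.01 ± 25.3 CPM, a change of 6.37 on the log2 scale, SE 0.81, edgeR adjusted p = 0.00126), and Zfp36, an mRNA decay factor (12.5 ± 2.45 against 38.1 ± 13.4 CPM, log2 fold change 1.59, adjusted p = 0.0194, lost without control library 1, 3 or 4 and, at 0.059, with all 4 groups in 1 fit). The other 10 did not pass at E11.5 and overlapped between the groups. Their log2 fold changes ran from -1.20 (Egr1) to 2.25 (Ier3), with Fos at -0.26. At E13.5, 1 of 11 was lower (median -0.25), Btg2 (log2 fold change -1.52, adjusted p = 0.0408). The part of handling in the levels of Hspb1, Hspb2 and Cryab was not tested. Of the calls named at E13.5 in these chaperone and partner lists, every one was lost without RarαDN library 1: Hspe1, Bag1, Hsbp1, Vim, Des and Btg2 then had adjusted p between 0.0556 and 0.145, and of these only Vim passed without RarαDN library 2 (0.0479). Without both hemoglobin-rich controls, Vim and Hsbp1 passed and the other 4 did not, and with all 4 groups in 1 fit Hspe1, Bag1 and Des did not (adjusted p = 0.0721, 0.136 and 0.0934).

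Because these genes are known from muscle, glia and lens, markers of other cells were summed in the same libraries. At E11.5, melanoblast markers were 19.3 to 31.5 CPM in control and 1176 to 2678 CPM in RarαDN libraries; all 6 tested of 7 in the table were higher, Pmel from 7.87 ± 3.78 to 1085 ± 402 CPM (n = 4 each). Smooth muscle markers summed to 124 to 142 CPM in control and 394 to 831 CPM in RarαDN libraries, with 2 of 7 tested higher, Tagln and Myl9, while Acta2 was at 0.218 to 3.44 CPM in control and 0.291 to 31.7 CPM in RarαDN libraries, Myocd was at 0 in control and Lmod1 at 0 in RarαDN libraries. Striated muscle markers, of which 16 were in the table, summed to 20.0 to 37.2 and 30.2 to 41.3 CPM; none of the 5 tested passed, and Tnnc1, Myog, Ckm and Mb had 0 counts in all 4 RarαDN libraries. Macrophage markers summed to 0.0850 to 19.5 CPM in control and 35.3 to 184 CPM in RarαDN libraries, with 2 of 6 tested higher, C1qa and C1qb; C1qb was lost without control library 1, and C1qa without RarαDN library 4 or control library 1, 3 or 4, with limma-voom (adjusted p = 0.0937) or with all 4 groups in 1 fit (0.0524). Hspb2 and Cryab were thus high in the same 4 of these 8 libraries as the melanoblast, smooth muscle and macrophage sums. Myl9 made up most of the difference in the smooth muscle sum. Its means were 23.4 CPM without RarαDN and 309 CPM with it, while those of the whole sum were 131 and 541 CPM. Tagln added to it, from 2.51 to 70.9 CPM. Acta2, Actg2, Smtn and Des overlapped between the groups, and Tpm2 was higher in every RarαDN library without passing (edgeR adjusted p = 0.152). Among the RarαDN libraries, library 2, where Hspb2 was highest, had the highest smooth muscle sum (831 against 394 to 481 CPM), the highest macrophage sum (184 against 35.3 to 163 CPM) and the lowest melanoblast sum (1176 against 1731 to 2678 CPM). Library 1 was nearly as high in Hspb2 (114 against 128 CPM in library 2) and higher in Cryab (341 against 180 CPM). Its smooth muscle, macrophage and melanoblast sums were 481, 84.1 and 2368 CPM. In library 4, lowest in Hspb2 (53.6 CPM), these sums were 459, 163 and 2678 CPM. The part of other cell types in the levels of the 5 genes was not tested.

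ENCDC markers summed to 3364 to 4615 CPM in E11.5 control and 1562 to 2295 CPM in RarαDN libraries, with 1 of 11 tested higher and 3 lower. Of the lower ones, Ednrb was lost without control library 1, 3 or 4. Glial and Schwann cell precursor markers, a lineage known to express Cryab, summed to 385 to 485 and 406 to 560 CPM, and none of 6 passed. Mesenchymal markers summed to 324 to 497 and 476 to 744 CPM with none of 6 passing. Endothelial markers summed to 33.2 to 68.0 and 0 to 3.47 CPM, with 3 of 3 lower; Pecam1, which was lost without any 1 of the controls, and Cldn5 had 0 counts in the RarαDN libraries. Epithelial markers summed to 37.0 to 89.7 and 13.9 to 34.6 CPM, with 1 of 4 lower. This was Spint2, which was lost without control library 1 or 2 or RarαDN library 4. Erythroid markers summed to 0.544 to 43.9 and 6.10 to 22.3 CPM with none of 5 passing.

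At E13.5, where Hspb1 was lower with RarαDN, erythroid markers summed to 20.6 to 4090 CPM in control and 0.703 to 77.7 CPM in RarαDN libraries, with 1 of 6 tested lower. Hspb1 was highest in control library 2 (20.6 CPM), and was at 10.4 CPM in control library 3, the other hemoglobin-rich one. In the controls with few hemoglobin counts it was at 11.1 CPM (library 1) and at 2.80 CPM (library 4, the lowest of the 4). Smooth muscle markers summed to 168 to 456 CPM in control and 168 to 248 CPM in RarαDN libraries, with 2 of 9 tested lower, and striated muscle markers to 25.2 to 40.5 and 10.6 to 18.4 CPM with none of 4 passing. ENCDC markers summed to 2839 to 3666 and 3111 to 3485 CPM (1 of 11 higher, 1 lower), glial markers to 41.8 to 107 and 114 to 152 CPM (none of 5 passing), and mesenchymal markers to 161 to 349 and 452 to 550 CPM (1 of 4 higher, 1 lower). Melanoblast markers summed to at most 30.3 CPM, macrophage markers to at most 14.5, endothelial markers to at most 29.3 and epithelial markers to at most 59.0, with no member of these lists passing. Of these E13.5 marker calls, only Ednrb (ENCDC) passed whichever library was left out. Stmn2 (ENCDC), Hba-x (erythroid), Des and Tpm2 (smooth muscle), and Postn and Col1a2 (mesenchymal) were each lost without RarαDN library 1. Without both hemoglobin-rich controls, Hba-x, Des and Tpm2 did not pass (edgeR adjusted p = 0.143, 0.0761 and 0.0611), while Ednrb, Stmn2, Postn and Col1a2 did. The part of blood or muscle cells in the Hspb1 value was not tested.

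Genes whose levels followed each small heat shock protein were ranked by Pearson's r of log2(CPM + 1) over the 15 libraries, among 13412 genes. The 5 small heat shock protein genes were left out of each ranking, so neither gene of the pair could appear for the other. These values describe libraries that share groups, so they carry no test. A pattern over the groups like that of the member follows from this choice of genes. For Hspb2 the first 5 were Trim63, a muscle ubiquitin ligase (r = 0.991), the complement gene C2 (0.989), Rab17, a vesicle GTPase (0.987), Csrp3, a muscle LIM protein (0.981), and Bhlhe41, a circadian repressor (0.981). Their mean levels were 11.3 to 34.5 CPM in E11.5 RarαDN libraries and at most 0.360 CPM in any other group. For Cryab they were Cd81 (0.957), Ly6a (0.953), Sat1 (0.943), Sqstm1 (0.938) and Gpx3 (0.937), and no gene was in the first 5 of both members of the pair.

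For Hspb1 the first 5 were Prkcdbp (r = 0.935), H2afj (0.894), Vim (0.893), the glycolytic gene Tpi1 (0.893) and Fam162a (0.886). Each of these had a higher mean in E11.5 RarαDN than in E11.5 control libraries and a lower mean in E13.5 RarαDN than in E13.5 control libraries. Hspb1, by which they were ranked, had the same pattern. The genes nearest to Hspb6 were Sncaip (0.857), Trmt6 (0.842) and Ranbp3 (0.833). Those nearest to Hspb8 were Nudcd1 (0.915), Uqcrc1 (0.909) and Nip7 (0.909), the last with means of 164 to 333 CPM over the 4 groups.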

How the data were processed

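Per the labels and the methods of the study, cells were sorted from single embryos, cDNA was amplified with SMART and made into Nextera XT libraries, and single-end reads of 2 runs were combined. The authors removed repeat and ribosomal reads, mapped the rest with RUM and deposited counts, as whole numbers for each RefSeq transcript. The build and the mapper version were not stated in what was read here. The table's 15 log2 columns, quantile-normalised by the authors, and its 4 columns of the authors' own comparisons (fold changes and false discovery rates) were not used; 43170 empty rows without a gene name held no counts.

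For each gene the transcript marked as best was taken. After TMM scaling and the filterByExpr filter, counts were tested with the robust quasi-likelihood test of edgeR 4.0.16 in R 4.3.3, 1 fit per age, with Benjamini-Hochberg adjustment over all genes tested and a threshold of 0.05. SEs came from the fold change and the F statistic. The alternatives were RLE scaling, no filter, DESeq2 1.42.0, voom in limma 3.58.1, all 4 groups in 1 fit, a replicate block, the transcript of largest count, hemoglobin genes left out, each library left out, and both hemoglobin-rich E13.5 controls left out. The E11.5 fit of the 5 genes gives no p because Hspb2 was picked on it. The genes, lists and alternatives were chosen with earlier results of these data known. Named were all 5 genes, per list and age up to 3 genes of lowest adjusted p (or, with none passing, the most abundant), 3 flanking genes a side and the genes of highest r. Hspa1a, Hspb3, Bag3, Dnajb1, Hsph1, Hspa8, Hsp90aa1, Hsf1, Rara, Ret, Sox10, Egr1, Ier3 and Fos were named after their values had been seen. Marker lists gave summed CPM. Each library is a separate embryo. Steps were tested on simulated counts. No replicate pair was alike to within sampling noise. Sequences came from RefSeq (promoters) and GENCODE M21 (transcripts), and figures from matplotlib 3.10.9.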

Additional observations from a re-analysis of the deposited data

Results flagged for a closer look

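Hspb1 in the E11.5 RarαDN group had 1 library far above the others, library 2 at 22.1 CPM, and Hspb2 in the E13.5 control group had 1 library far above the others, control library 1 at 0.754 CPM (7 counts, the other 3 at 0). The gap to the next library made up 0.931 of the range of the group for Hspb1 and 1 for Hspb2. The cut-off was 0.829, which about 1 of 20 groups of 4 normally distributed values would pass, and 15 groups were examined. Counts in only 1 library of a group always give a value of 1, so that rate does not apply to Hspb2. Hspb1 also differed between the experiments: every RarαDN library was above every control at E11.5 (log2 fold change 4.49) and below every control at E13.5 (-3.26). That difference between the experiments was not tested, since the E11.5 comparison was part of the choice of genes.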

How the results depend on the processing

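Of the E13.5 results, the fall of Hspb1 was no longer past the threshold with limma-voom (log2 fold change -2.90), with all 4 groups in 1 fit (-3.31) and without both hemoglobin-rich control libraries (-2.60). Without 1 library its values were -3.58 to -2.81, and it passed only without control library 4. Cryab passed only with DESeq2 (-2.73), ranging from -3.40 to -1.995 without 1 library. Hspb8, which did not pass, changed sign without both hemoglobin-rich controls (0.21). Hspb6 had values of 0.74 to 2.84 and Hspb8 of -1.23 to -0.05 without 1 library. At E11.5, leaving out 1 library gave 2.82 to 4.91 for Hspb1, 7.84 to 9.13 for Hspb2, 5.64 to 6.80 for Cryab, -1.23 to -0.36 for Hspb6 and -1.65 to 0.31 for Hspb8, and Hspb8 was -1.64 with limma-voom and -1.08 with the replicate block.

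The test called 745 genes at E11.5 and 1007 at E13.5. DESeq2 called 1367 and 1723, the fit of all 4 groups called 649 at E13.5, and the fit without both hemoglobin-rich controls called 212. Leaving out 1 library gave 324 to 1143 genes at E11.5, with 324, 351 and 363 without control libraries 1, 3 and 4 and 1143 without RarαDN library 1. At E13.5 it gave 25 to 1258, with 25, 44 and 324 without RarαDN libraries 1, 2 and 3 and 462 without control library 3. The replicate numbers did not pair the embryos: deviations of same-numbered libraries correlated at 0.236, -0.196, 0.073 and 0.099 at E11.5 and at 0.043, 0.038 and 0.046 at E13.5. With the number as a block, 350 genes were called at E11.5 and 822 at E13.5. Among 176 values of these results under the alternatives, 147 kept their direction and their side of the threshold or stayed within the spread. The cause of these changes was not tested. Hspb2 at E13.5 could not be fitted, because 7 counts in 1 library did not pass the filter, and low counts limit Hspb1, Hspb6 and Hspb8 in all groups.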
